A study of Homo sapiens with 4 samples.

Results

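The comparison described here set cells of patches phototagged at high resolution against cells of patches phototagged at low resolution while their position along the epithelial-to-mesenchymal transition (EMT) was held. Of the 1536 wells of 4 plates, 1146 passed the limits of 2000 to 9000 detected rows and under 40% mitochondrial counts, of which 291 and 271 came from low-resolution replicates 1 and 2 and 291 and 293 from high-resolution replicates 1 and 2. Each cell was given a state value, which is the mean log-normalized level of FN1, VIM, EMP3, TPM2 and SNAI2 minus that of CDH1, EPCAM, CD24, AP1M2 and CLDN7. All passing cells were pooled and cut at equal numbers into 5 bins, from the most epithelial (bin 1, 230 cells) to the most mesenchymal (bins 2 to 5, 229 cells each). The bins were therefore chosen by measured values of these 10 genes, and the 10 genes are described below without a test.

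The cells were MCF10A carrying an H2B-GFP reporter, an untransformed human breast epithelial line, so that both experiments share 1 genetic background. For a patch in either experiment, 10000 cells were seeded on fibronectin and cultured for 6 days in medium with serum, EGF, hydrocortisone, cholera toxin and insulin. Every patch was incubated for 20 min with 40 μM photoactivatable JF646 and later with 40 μM photoactivatable JF549. Part of the patch was lit at 405 nm for 2 min after each dye. The dyes and the wavelength and time of light were thus shared, while the lit area differed between the experiments. The part of the lit area in the differences below was not tested. The low-resolution patches were divided into 3 rings of 1000 to 1500 μm. The high-resolution patches were divided into the outermost 250 μm, the next 250 μm and the inside. In both experiments the outer layer was lit after JF646 and the middle layer after JF549, and the light was not directed at the inside. Live cells were sorted by dye into 1 plate of 384 wells per replicate, with 2 biological replicates per experiment. The labels do not say how many patches a plate holds. The sort sets how many cells of each region it holds. Wells were not assigned to layers in this comparison, the 384 well barcodes are the same in all 4 plates by design, and low-resolution replicate 1 was run on another flow cell than the other 3 plates according to the file names.

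During EMT, epithelial cells lose junction proteins such as E-cadherin (CDH1) and EPCAM and gain cytoskeletal and matrix proteins such as vimentin (VIM) and fibronectin (FN1), under transcription factors that include SNAI2. MCF10A cells at a free edge take up such a state, and the same edge is also known for growth factor signaling, cell cycle entry and cytokine release. A comparison of whole patches mixes the share of cells in each state with what the cells of one state express. The bins separate these in part, since state still differed somewhat within bins, as given below.

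Sorting by narrower bands came with a different makeup by state. Bin 5 held 6.87% and 10.7% of the low-resolution cells (20 and 29 cells) but 33.3% and 28.3% of the high-resolution cells (97 and 83 cells). Bin 1 held 23.4% and 33.6% of the low-resolution cells against 13.4% and 10.9% of the high-resolution cells. In both bins the plates of the 2 experiments did not overlap. These shares follow from the values that made the bins and from the sort, and they are given as a description.

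**Figure D1:**
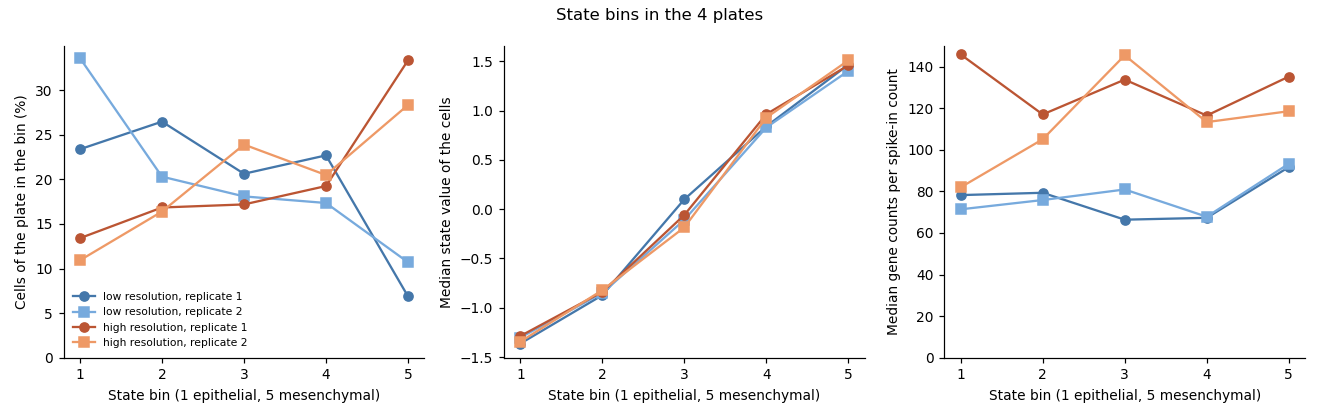
Share of each plate's cells in the 5 state bins (left, %), median state value of those cells (middle, log-normalized units) and median gene counts per spike-in count (right), with 1 line per plate. The high-resolution plates hold more cells in bin 5, have state values closer to those of the low-resolution plates within a bin than over all cells, and have more gene counts per spike-in count in all 5 bins.

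Binning brought the state values of the 4 plates closer together. The median in bin 5 was 1.46 and 1.40 in low-resolution replicates 1 and 2 against 1.46 and 1.51 in high-resolution replicates 1 and 2, while over all cells of a plate it was -0.592 and -0.730 against 0.633 and 0.428. The other bins held the state less closely in places. In bin 3 the medians were 0.0996 and -0.107 against -0.0591 and -0.184, which overlap but spread widely, and in bin 4 they were 0.840 and 0.829 against 0.963 and 0.928. In bins 2 and 4 both high-resolution medians lay above both low-resolution medians. The last cell of bin 1 had a state value of -1.072 and the first cell of bin 2 one of -1.069, the next limits lay between -0.5921 and -0.5920 and between 0.476 and 0.480, and the last lay between 1.1997 and 1.2005.

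The 10 genes that made the bins were held to different degrees. In CPM, which are counts scaled to a common library total for each bin, FN1 in bin 5 was 2347 and 1728 at low resolution against 1810 and 1697 at high resolution, and VIM was 609 and 392 against 328 and 487. The plates overlapped for both genes in that bin. SNAI2 was 256 and 235 at low resolution against 367 and 399 at high resolution of bin 5, and it was higher in both high-resolution plates in all 5 bins. CDH1 in bin 1 was 150 and 134 at low resolution against 121 and 128 at high resolution. CDH1 and AP1M2 were each lower in both high-resolution plates in 1 bin and higher in 1. EPCAM and CD24 were higher in 3 bins each, and CLDN7 was lower in 3. EMP3 and TPM2 were higher in 4 bins each. A bin with one mean of 5 genes minus 5 others can thus hold an unequal level of any single one of them.

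The cells expressed the genes of the labelled line. The basal keratin KRT5 was between 1616 and 2397 CPM per plate and KRT6A between 1620 and 2725 CPM, and of the basal markers fixed for the check all but TP63 were at 61.0 CPM or more in every plate. TP63 was between 0.808 and 1.14 CPM. The hormone receptor ESR1 reached at most 1.21 CPM and PGR had 1 count in all cells. The luminal factors FOXA1 and GATA3 were higher, at 7.44 to 11.4 CPM and 25.6 to 42.9 CPM. Of the genes listed for other cell types, some were at or near 0, with at most 0.297 CPM of COL1A2, 0.295 CPM of PTPRC, 0.202 CPM of VWF and 0.101 CPM of CDH5. Others were measured in every plate, with 6.04 to 8.94 CPM of the collagen COL1A1, 21.9 to 43.6 CPM of CD14, 5.77 to 9.02 CPM of CD68, 14.4 to 19.9 CPM of PECAM1 and 2.81 to 4.16 CPM of KDR, while DCN reached 2.88 CPM and LYZ 2.08 CPM. The part of such genes in the differences below was not tested.

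The main question was which genes differ between the experiments when state is held. The counts of the 5 bins of a plate were scaled to one total, summed and compared as 2 high- against 2 low-resolution plates. Higher in the high-resolution plates were the cytokine LIF (3.89-fold), the EGF receptor ligand AREG (2.18-fold), the AP-1 subunit FOSL1 (2.12-fold) and 12 of 29 genes of DNA replication. Lower were the ubiquitin ligase subunit FBXO32, the phosphoinositide 3-kinase subunit PIK3R1 and the Rap regulator SIPA1L2, whose low-resolution levels were 2.54, 2.49 and 2.27 times the high-resolution ones. Of 12431 genes tested outside the 10 state genes, 393 passed an adjusted p of 0.05 (3.16% of those tested; edgeR quasi-likelihood test with Benjamini-Hochberg adjustment), 182 higher (1.46%) and 211 lower (1.7%) in the high-resolution plates. Plates matched by state may still hold different mixes of patch regions, and such a mix cannot be told apart here from the experiment.

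The plates of the 2 experiments did not overlap for any of the 393 genes, and 301 of them had one sign in all 5 bins. Both counts follow in part from the call, since the bins make up the sums that were tested, and they are given as a description. The median gene differed by a log2 ratio of 0.149 in size between the low-resolution plates and by 0.121 between the high-resolution plates, while across the experiments it was 0.171 to 0.214. A comparison without holding the state called 1539 genes (12.4% of 12427), of which 1171 were not called with state held. The median size of the log2 change of those 1171 genes was 0.66 without and 0.41 with state held. These genes were picked for passing only without state held, so the smaller change with it is in part set by that choice. Conversely, 25 genes were called only with state held.

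The spike-in counts also differed between the experiments. The median number of gene counts per spike-in count was 77.2 and 74.2 in low-resolution replicates 1 and 2 against 127 and 117 in high-resolution replicates 1 and 2, and the plates did not overlap in any of the 5 bins. CPM are shares of all gene counts, and more RNA per cell cannot be told apart here from a smaller amount of spike-in per well. Median counts per cell were 30118 and 33283 against 35409 and 40893.

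**Figure D2:**
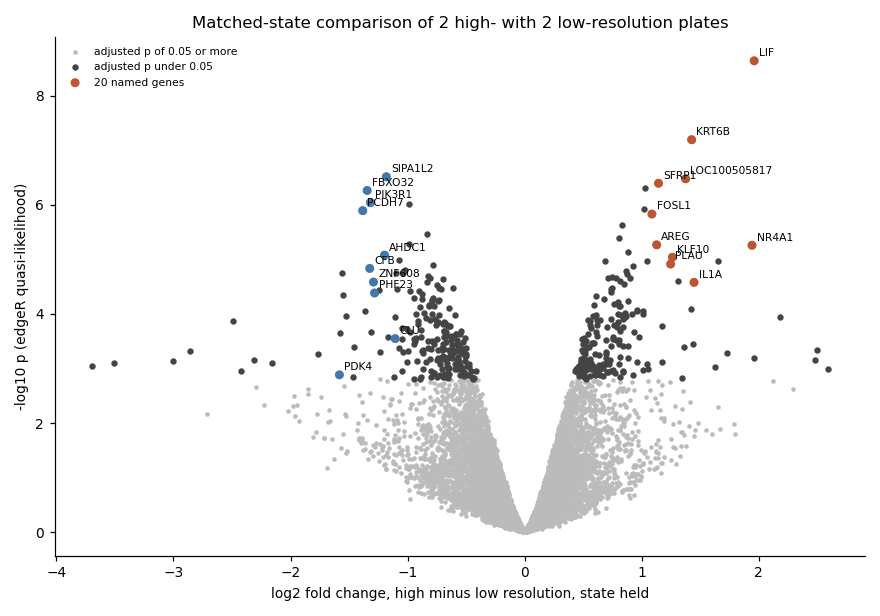
log2 fold change between 2 high- and 2 low-resolution plates with state held (x axis) against -log10 of the edgeR p (y axis, unadjusted) for 12431 genes, with the 20 named genes labelled, rises in red and falls in blue. LIF stands at the top on the right, and PDK4 lies close to the limit of the genes called (black).

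Among called genes with a mean of at least 10 CPM and the same sign in all 5 bins, the largest rise was in LIF, a cytokine of the IL6 family. Its CPM with state held were 23.6 and 28.7 at low resolution against 108 and 95.3 at high resolution. Both high-resolution plates stood above both low-resolution plates in all 5 bins. The log2 difference was 1.96 ± 0.14 (SE, n = 2 plates against 2), or 3.89-fold, with an edgeR adjusted p of 2.85e-05. LIF passed the test in each of the 5 bins, with log2 differences from 1.60 in bin 5 to 2.42 in bin 3.

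NR4A1, an orphan nuclear receptor of the immediate early response, was 12.5 and 26.9 CPM at low resolution against 61.4 and 89.3 CPM at high resolution. Its replicates differed more than those of LIF, and its plates still did not overlap in any bin. The log2 difference was 1.94 ± 0.26 (SE), with an edgeR adjusted p of 0.00382.

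IL1A, an alarmin of the interleukin 1 family, was 17.2 and 24.9 CPM against 72.5 and 42.7 CPM. High-resolution replicate 1 was the highest plate, and in bin 4 replicate 2 lay below both low-resolution plates, at 23.9 CPM against 26.0 and 28.3 CPM. The log2 difference was 1.45 ± 0.23 (SE), with an edgeR adjusted p of 0.00684, and 2 of 5 bins passed the test alone.

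AREG, the EGF receptor ligand amphiregulin, was 314 and 352 CPM at low resolution against 589 and 866 CPM at high resolution. It rose with the state value in all 4 plates, from 119 and 142 CPM in bin 1 to 589 and 665 CPM in bin 5 of the low-resolution plates, and from 241 and 386 CPM to 869 and 1249 CPM in the high-resolution plates. At each state the high-resolution plates were higher. The log2 difference was 1.13 ± 0.15 (SE), with an edgeR adjusted p of 0.00382.

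KRT6B, a keratin of wound-activated epithelium whose sequence is close to those of KRT6A and KRT6C, was 30.1 and 36.9 CPM against 92.8 and 87.3 CPM. It was 13.3 CPM or less in bins 4 and 5 of all plates and up to 178 CPM in bins 1 to 3, and the high-resolution plates were higher at each state. The log2 difference was 1.43 ± 0.13 (SE, edgeR adjusted p = 0.000398). Reads shared with the near-identical copies may be split by the counting, so the level of the single gene is uncertain.

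The other 5 of the 10 largest rises among these genes of the same sign in all 5 bins had log2 differences from 1.09 to 1.38. FOSL1, a Fos-family subunit of AP-1, was 109 and 83.8 CPM against 196 and 213 CPM. KLF10, a TGF-beta-inducible zinc finger factor, was 51.4 and 60.9 CPM against 104 and 165 CPM. PLAU, the urokinase plasminogen activator that acts on matrix at moving edges, was 40.4 and 33.9 CPM against 68.7 and 108 CPM. The remaining pair were SFRP1, a secreted modulator of Wnt signaling (97.4 and 110 against 250 and 209 CPM), and the uncharacterized locus LOC100505817 (16.2 and 14.5 against 39.1 and 40.6 CPM). Of the 50 combinations of these 10 genes with a bin, the high-resolution plates were both above the low-resolution plates in 49. The genes were chosen for having the same sign in all 5 bins, so this count follows in part from the choice.

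**Figure D3:**
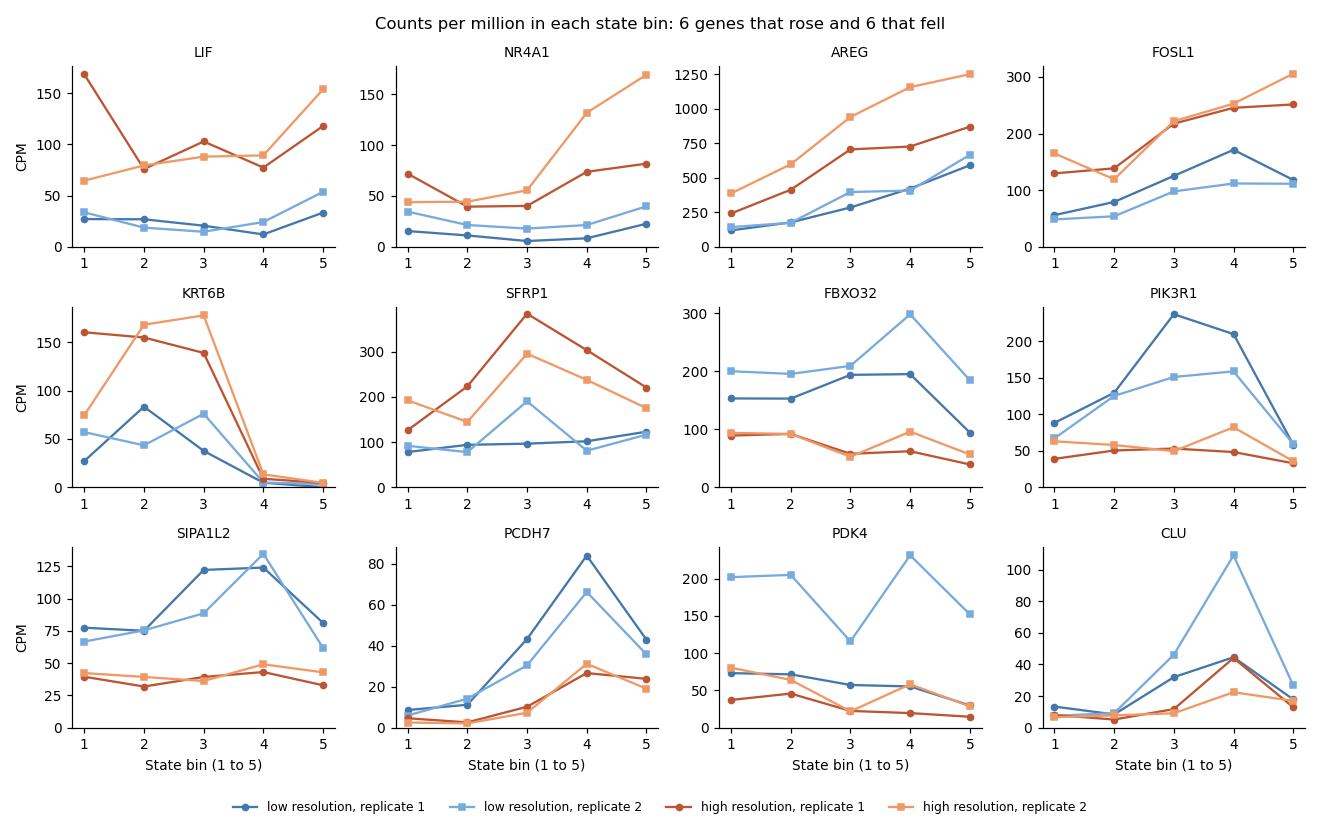
CPM in each state bin (x axis, bin 1 epithelial to bin 5 mesenchymal) of 6 genes that rose and 6 that fell, with 1 line per plate and CPM on a linear axis from 0. The high-resolution lines lie apart from the low-resolution lines in every bin for LIF, FBXO32 and SIPA1L2, while low-resolution replicate 2 alone is high for PDK4.

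Among the named falls, SIPA1L2 and FBXO32 had the smallest p-values of the edgeR test. SIPA1L2, which belongs to a family of GTPase activators for Rap, was 94.9 and 84.6 CPM in low-resolution replicates 1 and 2 against 37.1 and 41.9 CPM in high-resolution replicates 1 and 2 (log2 difference -1.18 ± 0.12 (SE), edgeR adjusted p = 0.000971). FBXO32, the muscle-atrophy ubiquitin ligase subunit atrogin-1, was 156 and 215 CPM against 67.8 and 78.2 CPM, with a log2 difference of -1.35 ± 0.15 (SE) and an edgeR adjusted p of 0.000971. Both were lower in both high-resolution plates in all 5 bins, and FBXO32 passed the test in all 5.

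PIK3R1, the regulatory subunit of phosphoinositide 3-kinase, was 144 and 111 CPM against 44.5 and 57.6 CPM. The 4 plates were apart in all 5 bins, by log2 differences from -1.93 in bin 3 to -0.63 in bin 1. Over all bins it was -1.32 ± 0.15 (SE, edgeR adjusted p = 0.00136). PCDH7, a protocadherin of cell-cell adhesion, was 37.7 and 30.1 CPM against 13.6 and 12.5 CPM, with no overlap in any bin.

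PDK4, the kinase that holds back pyruvate dehydrogenase, showed the largest fitted fall among the named genes, at -1.58 ± 0.39 (SE), and the weakest test, with an edgeR adjusted p of 0.0442. It was 56.6 and 180 CPM at low resolution against 27.8 and 50.7 CPM at high resolution. Low-resolution replicate 2 alone was high, and the plates overlapped in 2 of the 5 bins. Its fold was not stable, and it passed the test in 13 of 18 alternative settings.

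The other 5 falls lay between -1.32 and -1.11. CFB, complement factor B, was 19.9 and 20.2 CPM against 9.37 and 6.71 CPM, and CLU, the secreted chaperone clusterin, was 23.1 and 39.0 CPM against 16.3 and 12.6 CPM. The nuclear proteins ZNF608, PHF23 and AHDC1 reached at most 22.7 CPM in any low-resolution plate and 10.3 CPM in any high-resolution plate, and did not overlap between the experiments. Of 50 combinations of the 10 falling genes with a bin, the high-resolution plates were both lower in 44, which again follows in part from the choice of genes. AHDC1 passed the test in 0 bins taken alone, with the same direction in all 5.

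The genes listed below were put together by function. For each list the number of called members is read against the 1.46% of all tested genes that were called higher and the 1.7% that were called lower, and its median log2 difference against -0.02 over all tested genes. The first list held immediate early and AP-1 genes, which cells switch on within minutes of a stimulus and to which FOSL1, KLF10 and NR4A1 belong. Of 26 tested, 9 rose and 0 fell, with a median of 0.46. EGR1, the zinc finger factor at the head of this response, was 134 and 130 CPM at low resolution against 288 and 249 CPM at high resolution (log2 difference 1.03 ± 0.11 (SE), edgeR adjusted p = 0.000971).

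JUNB, which pairs with Fos proteins, was 186 and 171 CPM against 287 and 390 CPM, and IER3, a survival factor of the same response, was 124 and 167 CPM against 268 and 264 CPM. IER2, MAFF and CYR61, the last a matrix protein, also rose, by log2 differences from 0.49 to 0.81. The list did not rise as 1 block. FOS, JUN, MYC and KLF6 had log2 differences of -0.09, -0.07, -0.00466 and -0.12 and did not pass the test, and 18 of the 26 values were positive. In cells with a low share of cell cycle counts, 8 of 26 members rose, while the number called among all genes fell, as given in the closing section. Without low-resolution replicate 2 more members passed, in a setting that also called more of all genes.

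Of 19 interleukin 1 cytokines, chemokines and NF-kB feedback genes tested, 5 rose and 0 fell, with a median of 0.37. Besides LIF and IL1A these were the neutrophil attractant CXCL8 (18.0 and 32.1 against 56.3 and 68.1 CPM), the chemokine CCL20 (74.0 and 43.5 against 97.1 and 108 CPM) and IL6 (0.682 and 0.903 against 3.75 and 3.50 CPM). IL6 was close to the lower limit of what these plates measure. The list differed between bins, with a median of 1.42 in bin 5, where the low-resolution plates hold 20 and 29 cells, but of -0.11 in bin 3 and -0.04 in bin 4. CXCL8 passed the test in bin 5 alone of the 4 bins where it was tested, at 17.9 and 40.7 against 108 and 246 CPM, and its plates overlapped in bins 2, 3 and 4, with a log2 difference of -0.34 in bin 3. The NF-kB feedback genes NFKBIA and TNFAIP3 had log2 differences of 0.29 and 0.50 and did not pass the test, and CXCL2 had -0.13.

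Of 20 EGF receptor ligands, receptors and MAPK feedback genes tested, 5 rose and 0 fell, with a median of 0.26. The ligands that rose were AREG and HBEGF (32.8 and 53.9 against 64.6 and 90.1 CPM). The feedback genes that rose were the phosphatases DUSP5 (92.4 and 65.8 against 133 and 158 CPM) and DUSP6 and the inhibitor SPRY4, with log2 differences of 0.88, 0.81 and 1.04. The receptor EGFR was 74.6 and 76.9 against 76.7 and 61.6 CPM, and the ligand EPGN had a log2 difference of -0.05. Neither passed the test. Fewer members passed without high-resolution replicate 2, and the number called among all genes also moved when a plate was left out.

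Promoters are shown for the listed genes that were called higher, so their shared direction is how they were chosen. RefSeq windows (GRCh38.p14) of 250 bases before the start were found for 13 of the 19 called genes of these 3 lists. The letters searched were TGANTCA for AP-1, TGACGTCA for the cAMP response element and the CArG box by its usual pattern. All 3 read alike on both strands, and the first pair cannot match the same letters. The AP-1 letters stood in 3 of 16 windows (18.8%) against 6.57% of all 35116 windows. Of these 3, 2 are overlapping windows of IL1A that share a match, so that 2 of the 13 genes, IL1A and CXCL8, hold the letters. The cAMP response element stood in 2 windows (12.5%) against 1.65%, and the CArG box in 1 (6.25%) against 1.16%. A match is a description of sequence and says nothing about binding. The windows below have 30 bases each, 5′ to 3′ on the strand of the gene, with the searched letters in capitals.
EGR1, CArG box, chr5:138465364-138465393, plus strand: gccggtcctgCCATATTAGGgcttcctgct
AREG, cAMP response element, chr4:74445060-74445089, plus strand: cggccgggcctTGACGTCAtgggctgcggc
MAFF, cAMP response element, chr22:38201929-38201958, plus strand: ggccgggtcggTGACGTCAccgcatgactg
CXCL8, AP-1, chr4:73740421-73740450, plus strand: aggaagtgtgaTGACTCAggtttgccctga

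DNA replication genes rose in part. Of 29 S phase genes tested, 12 rose and 0 fell, with a median of 0.59, and all 29 values were positive. RRM2, the regulated subunit of ribonucleotide reductase, was 193 and 151 CPM at low resolution against 317 and 317 CPM at high resolution. MCM5 and MCM7, subunits of the replicative helicase, were 50.0 and 47.3 against 90.0 and 77.8 CPM and 165 and 160 against 239 and 252 CPM. In bin 1 the whole list took 0.0824% and 0.101% of counts in the low-resolution plates against 0.158% and 0.166% in the high-resolution plates. The plates were apart in 4 of 5 bins, all but bin 2. Replication-dependent histones, a separate list, went the other way. Of 6 tested, 0 rose and 2 fell, with a median of -0.67.

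Of 30 genes of G2 and mitosis, 6 rose and 0 fell, with a median of 0.41. AURKB, the kinase of the chromosomal passenger complex, was 25.7 and 21.6 against 42.0 and 40.8 CPM, and PLK1 was 55.8 and 64.7 against 95.4 and 85.5 CPM. The share of counts of the whole list overlapped or went the other way in 3 of the 5 bins. When only cells with cell cycle expression at or below the pooled median were used, 0 of 22 S phase genes and 0 of 27 G2 and mitosis genes passed the edgeR test (3 of each list at an unadjusted p under 0.05), which follows in part from that choice of cells. Both lists had fewer calls without high-resolution replicate 1, and the G2 and mitosis list also without high-resolution replicate 2. The number called among all genes also moved when a plate was left out. All 20 named genes kept their direction in the cells with low cell cycle expression, and 17 of them passed the test.

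**Figure D4:**
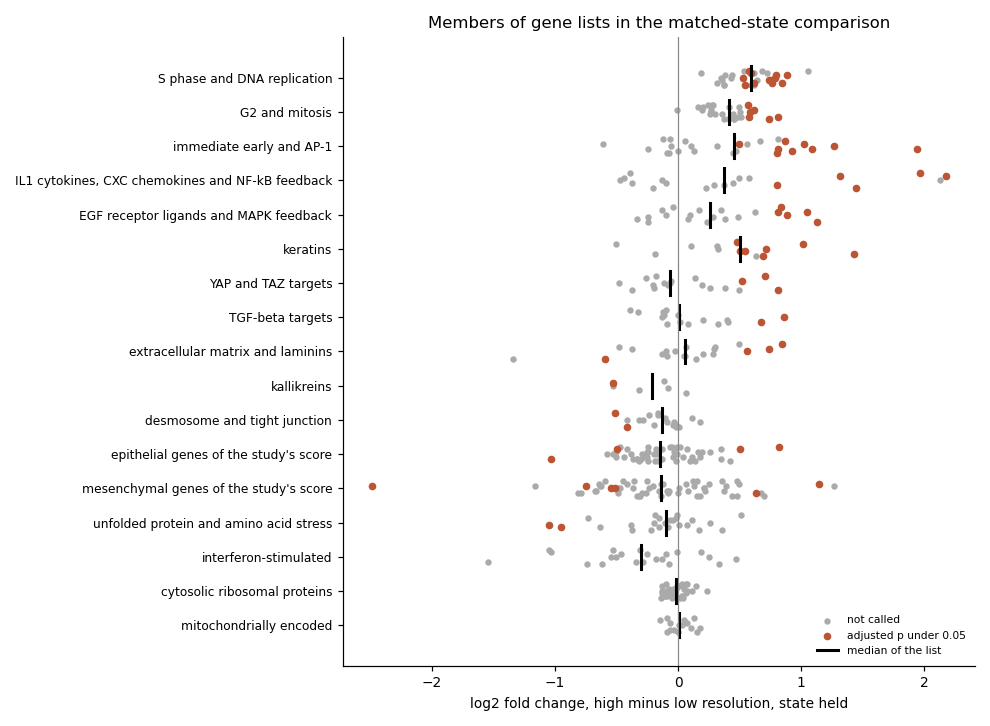
log2 fold change with state held (x axis) of every tested member of 17 gene lists (rows), with genes past an adjusted p of 0.05 in red and the median of each list as a black bar. S phase genes all lie above 0, while the ribosomal and mitochondrially encoded genes lie close to 0.

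Of 13 keratins tested, 7 rose and 0 fell, with a median of 0.50. Of the 13 values 11 were positive, and the lowest was -0.50. KRT81, a hair-type keratin that MCF10A expresses highly, was 2569 and 2666 CPM in low-resolution replicates 1 and 2 against 5897 and 4696 CPM in high-resolution replicates 1 and 2, with a log2 difference of 1.02 ± 0.12 (SE, edgeR adjusted p = 0.00144). KRT6A (1705 and 1640 against 2646 and 2751 CPM), KRT17 (411 and 462 against 669 and 761 CPM), KRT16, KRT5 and KRT7 also rose. The difference was not the same at each state, since the list median was 0.83 in bin 1 and 0.20 in bin 5. KRT6A differed by a log2 value of 1.13 in bin 1 and 0.00102 in bin 5, and KRT17 by 1.03 and 0.10, and the plates overlapped in bin 5 for both. Of the 13 keratins, 6 passed the test of state dependence described last, all with the more negative log2 change from bin 1 to bin 5 in the high-resolution plates. The simple keratins KRT8 and KRT18 had 0.32 and 0.31 and did not pass the test. KRT6A, KRT16, KRT17 and KRT81 share near-identical copies, so the split among copies is uncertain.

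The genes of the study's EMT score were described with and without state held. Of the study's epithelial genes outside the rule, 54 were tested, 2 rose and 2 fell (3.70% each way, against 1.46% and 1.7% of all genes), and the median was -0.15. Without holding the state, 3 rose and 25 fell, with a median of -0.58. Of all 12427 genes tested that way, 773 rose and 766 fell (12.4% in either direction). Of 61 mesenchymal genes, 2 rose (3.28%) and 4 fell (6.56%) with state held (median -0.14), while 14 rose and 3 fell of 60 without (median 0.15). These lists hold the 10 genes of the rule and genes that move with them, so this is in part fixed by how the bins were made. LOX, which cross-links collagen, and CYP1B1 fell (158 and 144 against 99.7 and 112 CPM, and 526 and 457 against 237 and 348 CPM), while SFRP1 rose.

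Junction genes and kallikreins, secreted proteases of squamous epithelium, were the next lists. Of 18 desmosome and tight junction genes, 0 rose and 2 fell with state held, against 9 that fell without, and of 6 kallikreins 1 fell against 6. Among all genes, 211 of 12431 fell with state held and 766 of 12427 without. Both junction calls were lost without low-resolution replicate 1, without high-resolution replicate 1 and without high-resolution replicate 2. DSP, the desmosomal plakin, was 528 and 536 CPM against 411 and 386 CPM, DSG3 was 129 and 113 against 83.7 and 85.4 CPM, and KLK8 was 101 and 93.5 against 59.5 and 74.7 CPM.

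Matrix genes split. Of 20 tested, 3 rose and 1 fell. The laminin-332 subunit LAMA3 (128 and 85.9 against 176 and 208 CPM) and the basement membrane collagen COL4A2 were among those that rose, and COL12A1 fell (57.5 and 45.5 against 35.5 and 32.8 CPM). The median of the list was 0.06. Among 16 TGF-beta targets TGFBI (443 and 544 against 801 and 774 CPM) and INHBA rose and 0 fell, with a median of 0.01, and among 18 YAP and TAZ targets CYR61, CTGF and AXL rose and 0 fell, with a median of -0.06.

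Of 24 genes of the unfolded protein and amino acid stress response, 0 rose and 2 fell, with a median of -0.10. HERPUD1 and DNAJB9, both acting in the endoplasmic reticulum, were 173 and 384 against 124 and 145 CPM and 64.8 and 113 against 43.8 and 48.2 CPM. In both genes low-resolution replicate 2 was the highest plate. The calls of the list were mostly rises without that plate and only falls without low-resolution replicate 1. The number called among all genes also changed in these settings, as given in the closing section. No member passed the test among 33 cytosolic ribosomal proteins (median -0.02), 15 mitochondrially encoded genes (0.01), 29 nuclear respiratory chain genes (-0.02) and 24 hypoxia and glycolysis genes (-0.04), of which 1, 0, 1 and 4 had an unadjusted edgeR p under 0.05. Without low-resolution replicate 2, some hypoxia and glycolysis genes passed in each direction, in a setting that also called more of all genes.

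Each bin was also tested alone. Bins 1, 2, 4 and 5 gave fewer calls than all bins together, and bin 3 gave more. The numbers were 53 of 9628 genes in bin 1 (0.55%), 63 of 9520 in bin 2 (0.662%), 404 of 9437 in bin 3 (4.28%), 49 of 9488 in bin 4 (0.516%) and 49 of 9747 in bin 5 (0.503%). In all, 468 genes were called in at least 1 bin, of which 368 were called in exactly 1. Only LIF and FBXO32 among the named genes passed in all 5, and 158 of the 393 genes called over all bins passed in 0 bins alone. Of those tested in a bin, the share with the same sign as over all bins ran from 339 of 364 in bin 5 to 369 of 371 in bin 3.

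It was last asked whether the difference between the experiments depends on state. For each gene the change from bin 1 to bin 5 was compared between the experiments, with the plate as a term. Of 10307 genes, 105 passed an edgeR adjusted p of 0.05 (1.02%). The signed log2 change was more positive in the high-resolution plates for 38 and more negative for 67. In 35 of the 105 the gene rose with state in all 4 plates and by less in the high-resolution plates, in 13 it fell in all 4 and by less, and in 34 the mean directions were opposite. This count was unstable. It was 12 with DESeq2, and 0 with 10 bins, with the state value from the study's lists, and without mitochondrial rows, as listed in the closing section.

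**Figure D5:**
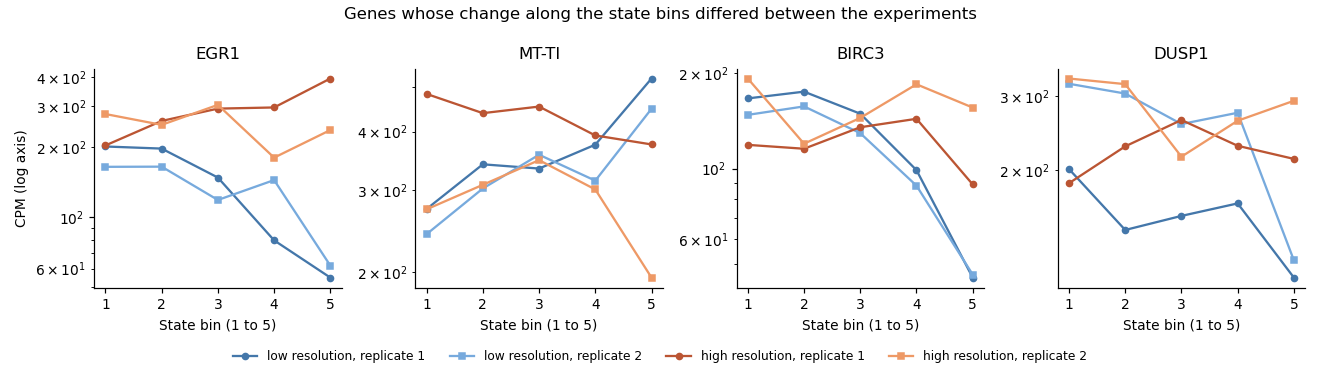
CPM in each state bin (x axis) on a log axis for 4 of the 5 genes with the smallest p for the change from bin 1 to bin 5, with 1 line per plate and CPM scaled within each bin, so that they differ slightly from the values of the common fit. EGR1, BIRC3 and DUSP1 fall toward bin 5 in the low-resolution plates by more than in the high-resolution plates.

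EGR1 went from 207 and 170 CPM in bin 1 to 53.2 and 60.1 CPM in bin 5 of the low-resolution plates, and from 208 and 285 CPM to 382 and 231 CPM in the high-resolution plates. It fell in both low-resolution plates, while at high resolution it rose in replicate 1 and fell slightly in replicate 2. The change differed by 2.00 ± 0.23 on the log2 scale (SE, edgeR adjusted p = 1.21e-08). DUSP1, a phosphatase of MAP kinases, went from 207 and 331 CPM to 108 and 119 CPM against 190 and 339 CPM to 206 and 285 CPM, and BIRC3, an inhibitor of apoptosis, went from 171 and 152 CPM to 43.9 and 45.0 CPM against 121 and 197 CPM to 86.3 and 152 CPM.

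The mitochondrial transfer RNA row MT-TI, whose reads may come from neighbouring mitochondrial transcripts, rose with state at low resolution and fell at high resolution, from 281 and 249 CPM to 504 and 435 CPM against 493 and 279 CPM to 364 and 190 CPM.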

How the data were processed

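The values deposited by the authors are expected counts per row and well. Each is an estimate of molecules from the distinct unique molecular identifiers (UMIs) seen, allowing for repeat draws of one identifier. They are not scaled for depth and include spike-in rows. The submitters' processing notes name STAR 2.7.3a, hg38 and Seurat 4. Spike-in rows were left out of all totals. The total of the cells kept was between 9894334 and 13538057 counts per plate, and the intervals of single values cover 2 plates per group. Cells were not replicates: expected counts were summed per plate and bin, the bins of a plate were scaled to one total, summed and rounded to whole numbers, and 2 plates were compared with 2 by edgeR 4.0.16 (TMM, filterByExpr, quasi-likelihood test, two-sided, Benjamini-Hochberg over all genes tested, threshold 0.05). With 2 residual degrees of freedom the spread is largely shared across genes, and p-values measure the spread between these plates. SE are the log2 difference over the root of its F value. Each bin was also fitted alone, and the change from bin 1 to bin 5 was fitted over 8 libraries with the plate as a term.

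Named genes were the 10 largest rises and 10 largest falls among called genes with plates that do not overlap, one sign in 5 bins and a mean of at least 10 CPM, the 5 smallest p-values for the state dependence, and, in each list, members of small p-value or high level. Further called members, and uncalled members given for contrast, were named after their values were seen. Some genes these rules pick are not reported here. The members, the lists and the bins were chosen with earlier results of these data known. The lists were matched by symbol, with older symbols from RefSeq. No doublet caller was run, and the limit of 9000 rows was the sole guard. The fits were tested on simulated data. The alternatives were DESeq2 1.42.0, limma 3.58.1, another normalization, no filter, no standardization, other bins, another state value, cells thinned to 10000 whole UMIs (1130 cells left), cells with low cell cycle expression (573), mitochondrial choices, a replicate block and each plate left out. R 4.3.3 and Python were used.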

Additional observations from a re-analysis of the deposited data

Results flagged for a closer look

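The difference between high- and low-resolution plates itself changed between the lowest and the highest state bin for 105 genes, by the edgeR quasi-likelihood test of the bin-by-experiment term with Benjamini-Hochberg adjustment. Among the 5 genes of smallest p-value were EGR1, BIRC3, DUSP1 and the mitochondrial row MT-TI. The signed log2 change from bin 1 to bin 5 was more positive in the high-resolution plates by 2.00, 1.42 and 1.17 for EGR1, BIRC3 and DUSP1. These 3 genes fell in both low-resolution plates. For MT-TI the difference was -1.32. Among the alternatives in which a gene was tested, EGR1 passed the test in 11 of 16, MT-TI in 12 of 15, BIRC3 in 11 of 16 and DUSP1 in 8 of 16. Bin 5 rests on 20 and 29 cells in the low-resolution plates, against 97 and 83 in the high-resolution plates.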

How the results depend on the processing

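None of the 20 named genes changed direction in any of 18 alternatives, and 15 of them passed the test in all 18. The others were PDK4 (13 of 18, log2 difference from -2.18 to -0.51), CLU (16), and CFB, PHF23 and AHDC1 (17 each).

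The 393 genes called with state held became 948 without a filter on low counts, 1539 without standardization, 1637 with bins cut within each plate, 209 with cells thinned to equal depth, 125 in cells with low cell cycle expression and 1292 with limma-voom over 20 sums. Leaving out 1 plate gave 236 (without high-resolution replicate 1) to 1239 (without low-resolution replicate 2). Without low-resolution replicate 1, the plate of the other flow cell, 318 were called.

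The 468 genes called in at least 1 bin became 258 with DESeq2, 1158 without a filter, 2208 with bins cut within each plate, 304 with thinned cells and 101 in cells with low cell cycle expression, and 532 to 1161 with 1 plate left out (742 without low-resolution replicate 1 and 1161 without low-resolution replicate 2).

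The 105 genes of the state dependence became 12 with DESeq2, 50 with 3 bins, 0 with 10 bins, 203 with bins cut within each plate, 0 with the state value from the study's lists, 5 with thinned cells, 0 without mitochondrial rows, 7 in cells with low cell cycle expression, 24 without the mitochondrial limit, and 49 (without low-resolution replicate 2) to 147 with 1 plate left out. Beside the 3 counts of 0, all by edgeR, 386, 616 and 706 genes had an unadjusted p under 0.05, against 981 in the reported test. BIRC3 went to -0.000632 in cells with low cell cycle expression. The causes were not tested.

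With a replicate block the counts were 856, 536 and 121. The labels do not say that a number marks a shared day, and same-numbered plates did not deviate together (r = -0.0235 across 7688 genes, which are not independent replicates), so the numbers were not taken to pair the plates. With 1 plate left out, the lone plate is assumed to vary like the other group. The lowest numbers of cells, 20 and 29 in bin 5, limit what that bin can show.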
